A study of Mus musculus with 6 samples.

Results

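Endothelial identity in the pressure-overloaded mouse heart was followed through 34 genes, chosen by name as genes that mark or maintain endothelial cells. All 34 were among the 19320 genes of the deposited expression table. They were sorted by role into 7 junction and adhesion genes, 7 glycocalyx and secreted-protein genes, 3 receptors for vascular endothelial growth factor (VEGF), 3 genes of the angiopoietin axis, 6 genes of capillary function and signalling, 6 transcription factors of the ETS, SOXF and TAL1 families, and 2 Krüppel-like factors. Heart RNA was sequenced in 3 groups of 2 libraries, all labelled 2 weeks. The first group was labelled Snai1 knockdown and had transverse aortic constriction (TAC), an operation that narrows the aorta and so raises the load on the left ventricle. The second group was labelled wild type and had TAC. The third was labelled wild type and had the sham operation. The series text names the knockdown shSnai1, and the series title speaks of EndoFP, a term left unexplained there. The labels name no control hairpin, no cell type or promoter to which the knockdown was restricted, and no strain, age or sex. They also leave unsaid whether each library is its own mouse. The p-values thus reflect the scatter of these libraries alone, part or all of which could be technical.

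Endothelial cells line every vessel of the heart and the inner face of its chambers. They hold each other through the cadherin Cdh5 and claudins, read growth signals through the VEGF and Tie receptors, and keep their state through ETS, SOXF and Krüppel-like transcription factors. In endothelial to mesenchymal transition such cells lose junction and identity genes and gain mesenchymal ones, and Snai1, a zinc-finger repressor that binds E-box sequences, is among the factors known to drive it in culture and in development. The comparison of knockdown with TAC alone sets hearts labelled Snai1 knockdown against hearts with TAC alone. Without a named control hairpin, effects of hairpin delivery and of Snai1 loss cannot be told apart in it. The comparison of TAC with sham sets hearts with the operation against sham hearts. Other differences between these libraries cannot be told apart from an effect of the operation.

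The deposited columns behaved as 60:40 mixtures of the 2 libraries of each group, and all values below come from the resolved libraries. They held 15254674 and 18247816 reads in the knockdown libraries, 18094371 and 17221296 reads in the TAC libraries and 14835962 and 17411291 reads in the sham libraries. Levels are counts scaled to the library total (CPM). The heart label was matched by the cardiomyocyte marker list, whose 9 genes summed to between 100590 and 112770 CPM in every library. In that list Ryr2, the calcium release channel, had the smallest p for TAC against sham, with a log2 fold change of 0.44 ± 0.15 that was not called. A gene was called changed at a Benjamini-Hochberg adjusted p below 0.05 in limma's moderated test over 14447 genes. Fold changes are on the scale of log2 CPM with 0.5 added to the reads and stand beside their standard error. Each fit had 2 libraries a group. Fewer endothelial cells and less RNA per endothelial cell cannot be told apart in whole tissue.

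Snai1 itself (ENSMUSG00000042821, GRCm38 chr2:167538195-167542814, plus strand) was a low-abundance transcript. It stood at 3.41 and 2.74 CPM in the knockdown libraries, at 4.48 and 4.24 CPM in the TAC libraries and at 5.12 and 3.45 CPM in the sham libraries. Both knockdown libraries lay below all 4 others. The knockdown libraries were at 0.704 times the TAC level (log2 −0.51 ± 0.33), which did not pass the test (limma, Benjamini-Hochberg adjusted p = 0.9995). A loss of Snai1 RNA was thus not established here, and the endothelial results between these groups carry that limit. Between TAC and sham the log2 fold change of Snai1 was 0.05 ± 0.33, with overlapping groups.

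All 34 genes were measured well above the filter on low counts, and all 34 were tested. The lowest count of any of them in a library was 91 reads. Together they summed to 4208 and 3606 CPM in the knockdown libraries, 3494 and 3990 CPM in the TAC libraries and 3692 and 3558 CPM in the sham libraries. These ranges overlapped in every pair of groups. The highest library of a gene was between 1.201 and 2.199 times its lowest, with a median of 1.51, and 33 of the 34 genes spanned less than 2-fold over all 6 libraries.

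**Figure D1:**
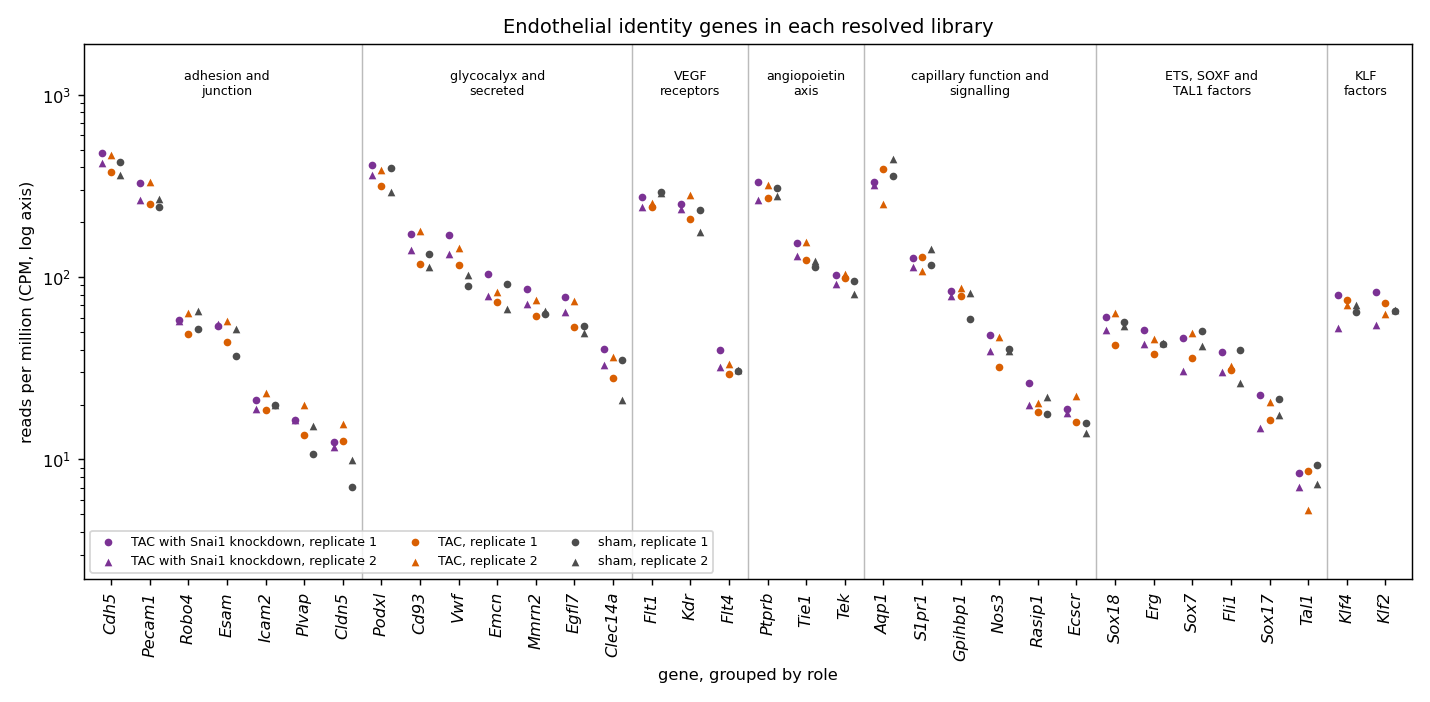
Level (CPM, log axis) of the 34 endothelial identity genes, grouped by role along the horizontal axis, with 1 point for each resolved library. Colours stand for the groups, TAC with Snai1 knockdown, TAC and sham from left to right within a gene, and circles and triangles for replicates 1 and 2. The points of a gene lie close together, and 33 of the 34 genes span less than 2-fold.

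Per kilobase of annotated exon, over the 6 libraries, the genes spread over a wide range. Aqp1, the water channel of microvascular endothelium and red cells, had the highest level (133 ± 25.2 CPM per kb, SD, n = 6 libraries), and Cdh5, the VE-cadherin of endothelial adherens junctions, followed at 101 ± 11.04 CPM per kb with an overlapping range. Podxl, an anionic sialomucin of the glycocalyx, came next at 65.9 ± 8.50 CPM per kb and overlapped neither neighbour. Pecam1, the platelet and endothelial adhesion molecule CD31, had 45.1 ± 6.27 CPM per kb and S1pr1, the sphingosine-1-phosphate receptor, 40.3 ± 4.18 CPM per kb, and their ranges overlapped. The lowest were Flt4, the receptor for VEGF-C (3.97 ± 0.464 CPM per kb), Sox17 (3.96 ± 0.650 CPM per kb) and Tal1, a basic helix-loop-helix factor shared with blood cells (1.76 ± 0.332 CPM per kb). From Pecam1 down to Rasip1 every gene overlapped the next in this order, and gaps between neighbours followed only Cdh5, Podxl, Rasip1 and Sox17.

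After TAC no endothelial identity gene was called higher or lower than in sham, against a background of 0.0831% of all genes called higher and 0.0761% called lower. At an unadjusted p below 0.05, Cldn5 and Vwf were higher and Flt1 lower (background 5.86% and 3.72%). The limma-voom and robust limma fits also called 0 of the 34. Of the 34 fold changes 21 were above 0 and 13 below, where 56.2% of all genes were above 0. Their median was 0.05 on the log2 scale, beside 0.04 for all genes tested. In 5 genes, Cldn5, Vwf, Tie1, Tek and Ecscr, both TAC libraries lay above both sham libraries (background 23.7%), and in Flt1 both lay below (background 16.4%).

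Cldn5, the claudin of endothelial tight junctions (chr16:18776847-18778262, plus strand), had the largest difference. It was at 12.5 and 15.56 CPM in the TAC libraries and at 7.08 and 9.88 CPM in the sham libraries. The groups did not overlap, and sham replicate 1 was the lowest of all. TAC was 1.67-fold higher (log2 0.74 ± 0.22), which did not pass the adjustment over all genes (limma, Benjamini-Hochberg adjusted p = 0.258). Vwf, which encodes von Willebrand factor, the clotting protein that endothelium stores and releases (chr6:125546774-125686679, plus strand), was at 117 and 144 CPM in the TAC libraries and at 89.8 and 102 CPM in the sham libraries. Its groups did not overlap either, and its fold change of 0.44 ± 0.14 on the log2 scale missed the threshold (limma, Benjamini-Hochberg adjusted p = 0.291).

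Flt1, the VEGF receptor 1 that binds VEGF-A with high affinity and limits its supply to Kdr (chr5:147561604-147726011, minus strand), went the other way. It was at 243 and 255 CPM in the TAC libraries and at 292 and 290.04 CPM in the sham libraries, with no overlap and the smallest standard error of the 34 genes. The difference was −0.22 ± 0.10 on the log2 scale (limma, Benjamini-Hochberg adjusted p = 0.519). Aqp1 (chr6:55336432-55348555, plus strand) was at 393 and 251 CPM in the TAC libraries and at 359 and 444 CPM in the sham libraries. The TAC libraries stood on both sides of sham replicate 1, so the groups overlapped, and the difference of −0.35 ± 0.17 missed the threshold (limma, Benjamini-Hochberg adjusted p = 0.540). Aqp1 is also a red cell gene, and 4 erythroid genes summed to 865 and 792 CPM in the TAC libraries and to 1758 and 904 CPM in the sham libraries, none of them at 0. None of the 4 was called by limma, and 3 were lower at an unadjusted p below 0.05 (background 3.72%). The part of the erythroid genes in the Aqp1 values was not tested.

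The 250 bases before the RefSeq transcription starts of Cldn5, Flt1 and Aqp1 are printed because these genes were among the 4 with the smallest unadjusted p between TAC and sham. They are RefSeq sequences of GRCm38.p6, written along the gene's strand from 5′ to 3′, at chr16:18776597-18776846 (plus strand) for Cldn5, chr5:147726012-147726261 (minus strand) for Flt1 and chr6:55336049-55336298 (plus strand) for Aqp1. Capitals mark the E-box letters CAGGTG or their reverse complement CACCTG, the form that Snail proteins are known to bind, and the ETS core AGGAAG or its reverse complement CTTCCT.
Cldn5: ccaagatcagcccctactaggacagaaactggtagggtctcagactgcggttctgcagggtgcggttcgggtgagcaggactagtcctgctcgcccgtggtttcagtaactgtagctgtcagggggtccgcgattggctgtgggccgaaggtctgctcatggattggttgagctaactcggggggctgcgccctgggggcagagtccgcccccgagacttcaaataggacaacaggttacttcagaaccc
Flt1: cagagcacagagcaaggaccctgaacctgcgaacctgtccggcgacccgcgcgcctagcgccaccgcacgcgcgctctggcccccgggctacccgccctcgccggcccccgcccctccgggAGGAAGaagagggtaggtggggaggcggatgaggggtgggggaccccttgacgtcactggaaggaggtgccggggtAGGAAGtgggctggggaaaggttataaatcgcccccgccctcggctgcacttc
Aqp1: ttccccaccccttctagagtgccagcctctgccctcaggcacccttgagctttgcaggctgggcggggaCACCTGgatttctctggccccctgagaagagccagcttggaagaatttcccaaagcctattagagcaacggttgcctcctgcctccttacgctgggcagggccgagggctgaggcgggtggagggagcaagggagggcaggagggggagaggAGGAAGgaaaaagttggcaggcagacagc
Cldn5 held neither motif in this window, Flt1 held the ETS letters at 2 places and no E-box, and Aqp1 held 1 of each. Of the 34 genes 16 were matched in the RefSeq promoter table, with 21 windows of 250 bases. The E-box letters stood in 4 of the 21 windows, which was 19.05%, and in 17.22% of all 32851 windows of that length. The genes were Aqp1, Egfl7, Erg and Flt4. The ETS letters stood in 9 of the 21 windows, or 42.86%, against 29.48% of all windows, in 8 genes that included Tie1, Robo4 and Emcn. Both strands were searched and the 2 motifs cannot share bases. A match describes letters in a window and is no measure of binding.

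By role, the junction and adhesion genes leaned above 0 after TAC, 6 of 7 where 56.2% of all genes were, with a median log2 fold change of 0.19. Cdh5 (chr8:104101625-104144511, plus strand) was at 376 and 466 CPM in the TAC libraries and at 429 and 364 CPM in the sham libraries, so that each group spanned much of the other, and it differed by 0.08 ± 0.13 on the log2 scale. Pecam1 was at 252 and 333 CPM after TAC and at 241 and 268 CPM in sham, again with overlap. The remaining junction genes, namely the adhesion molecules Esam and Icam2, the guidance receptor Robo4 and the diaphragm protein Plvap, lay between −0.06 (Robo4) and 0.37 (Plvap).

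The glycocalyx and secreted genes also leaned above 0, 6 of 7, with a median of 0.22. Podxl (chr6:31519488-31563981, minus strand) was at 317 and 386 CPM in the TAC libraries and at 398 and 295 CPM in the sham libraries. Both TAC values fell inside the range of sham, and the difference was 0.03 ± 0.14 on the log2 scale. Egfl7, a secreted matrix protein of growing vessels, differed by 0.27 ± 0.16. Its counts could include reads of neighbours, since its locus overlaps Agpat2, Gm20532, Mir126a and Mir126b and the strand setting of the counting is not given in the sources used here. The same holds for the 9 of the 34 genes that overlap another annotated gene, 8 of them on the opposite strand.

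Among the VEGF receptors, Kdr, the main signalling receptor for VEGF-A, was at 209 and 282 CPM after TAC and at 232 and 177 CPM in sham, with overlap and a difference of 0.26 ± 0.15 on the log2 scale. Flt4 differed by 0.02 ± 0.15. In the angiopoietin axis the receptors Tie1 and Tek were both higher in each TAC library than in each sham library. Tie1 was at 124 and 155 CPM after TAC and at 113 and 122 CPM in sham, and Tek, the receptor for Angpt1, was at 98.9 and 103 CPM after TAC and at 95.7 and 81.0 CPM in sham. The gaps were narrow, and neither gene passed an unadjusted p of 0.05. Ptprb, the phosphatase that holds Tek activity down (chr10:116275523-116389535, plus strand), was at 270.4 and 319 CPM after TAC and at 308 and 278 CPM in sham, a difference of 0.01 ± 0.13.

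The 6 ETS, SOXF and TAL1 factors were all below 0 after TAC, where 56.2% of all genes were above 0. Their median log2 fold change was −0.08, and none was separated from sham. In TAC replicate 2, Erg, Sox7, Sox17 and Sox18 stood above their sham means, and Fli1 and Tal1 below. The sign of Erg and of the SOXF genes thus came from TAC replicate 1. Sox18, a SOXF factor of vessel and lymphatic development (chr2:181669836-181671640, minus strand), was at 42.6 and 63.8 CPM in the TAC libraries and at 57.0 and 53.8 CPM in the sham libraries. The TAC values stood on either side of sham. Erg, the ETS factor central to endothelial maintenance, was at 37.9 and 45.9 CPM after TAC and at 42.9 and 43.5 CPM in sham, and its relative Fli1 was at 31.1 and 32.3 CPM after TAC and at 40.04 and 26.4 CPM in sham. Tal1 had the lowest fold change of the 6, −0.29 ± 0.28. The flow-responsive factors Klf2 and Klf4 were both slightly above 0. Klf4 (chr4:55527143-55532466, minus strand) was at 75.3 and 70.3 CPM after TAC and at 64.3 and 70.6 CPM in sham, which overlapped.

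The intervals bound how large a loss these libraries allow. For TAC against sham, the 95% interval of every one of the 34 genes lay above a log2 of −1, that is, above a fall to 0.5 times the sham level. The lowest lower bound was −0.88, for Tal1, which is 0.542 times sham. The intervals of 30 genes also lay above 70% of the sham level. At the upper end only the interval of Cldn5, which reached 1.21, passed a doubling. These intervals are per gene and rest on the spread of 2 libraries a group moderated over all genes.

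**Figure D2:**
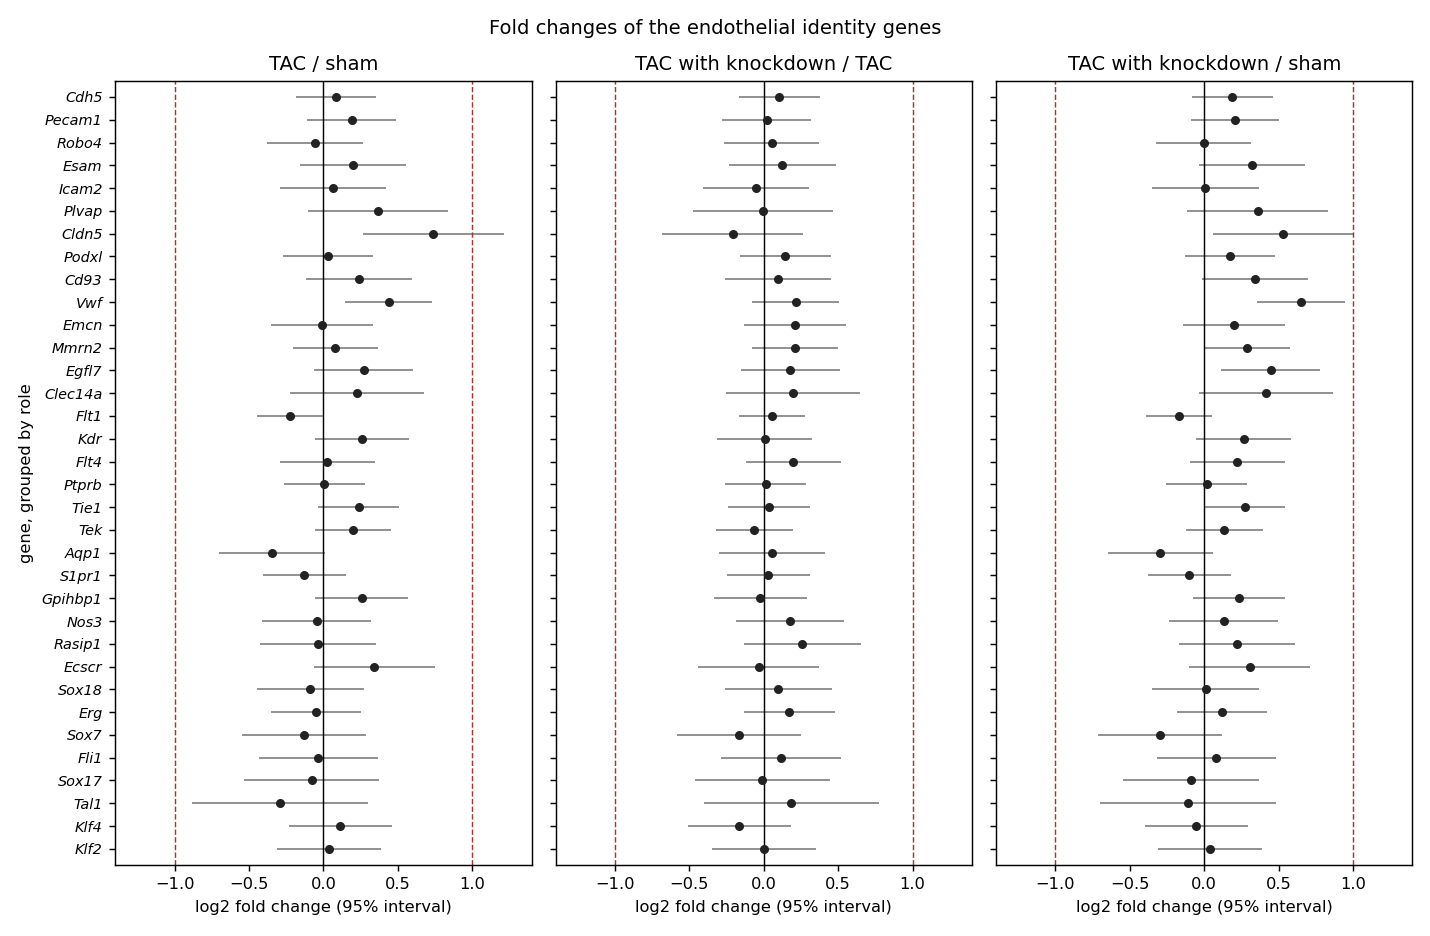
Log2 fold changes of the 34 genes with their 95% intervals from the moderated fit, for TAC over sham, TAC with knockdown over TAC, and TAC with knockdown over sham. Dashed lines stand at a log2 of −1 and 1. No interval crosses the lower dashed line in any panel, and Cldn5 is the gene whose interval crosses the upper one.

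Between TAC with Snai1 knockdown and TAC alone none of the 34 genes passed the test, and no gene of the whole table was called higher or lower (background 0% and 0%). The limma-voom and robust limma fits also called 0 of the 34. At an unadjusted p below 0.05 there was none of the 34 either, where 1.27% of all genes were higher and 0.81% lower at that level. Of the fold changes 25 were above 0 and 9 below, where 54.4% of all genes were above 0, and the median was 0.05 on the log2 scale beside 0.02 for all genes. No gene had both knockdown libraries above both TAC libraries (background 16%). In Cldn5 alone both lay below (background 12.4%). Every interval lay above a fall to 0.5 times and below a doubling. The lowest bound was −0.68 for Cldn5, the highest 0.78 for Tal1, and 32 of the 34 intervals lay above 70% of the TAC level.

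Cldn5 was at 12.5 and 11.7 CPM in the knockdown libraries and at 12.5 and 15.56 CPM in the TAC libraries. The separation was small, since knockdown replicate 1 and TAC replicate 1 were nearly equal, and the difference was −0.21 ± 0.22 on the log2 scale. The 7 glycocalyx and secreted genes were all above 0, where 54.4% of all genes were, with a median log2 fold change of 0.19. In all 7 TAC replicate 2 lay above knockdown replicate 2, so the groups overlapped. Mmrn2, an extracellular matrix protein of the vessel wall that binds CD93 and CLEC14A (chr14:34375465-34404287, plus strand), had the smallest p. It was at 86.1 and 71.5 CPM in the knockdown libraries and at 61.3 and 75.0 CPM in the TAC libraries, a difference of 0.21 ± 0.13 (limma, Benjamini-Hochberg adjusted p = 0.9995). Its partners Cd93 and Clec14a differed by 0.10 ± 0.17 and 0.19 ± 0.21.

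Vwf was at 169 and 134 CPM in the knockdown libraries and at 117 and 144 CPM in the TAC libraries. TAC replicate 2 lay above knockdown replicate 2, so the groups overlapped, and the difference was 0.21 ± 0.14. Rasip1, a Ras-interacting protein needed for vessel lumen formation (chr7:45627488-45639093, plus strand), had the highest fold change, 0.26 ± 0.18. It was at 26.4 and 20.002 CPM after knockdown and at 18.1 and 20.3 CPM in TAC alone, and the excess was in knockdown replicate 1. Flt4 (chr11:49609263-49652739, plus strand) was at 39.99 and 32.2 CPM in the knockdown libraries and at 29.3 and 33.3 CPM in the TAC libraries, again overlapping, with 0.20 ± 0.15.

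For the gene with the highest CPM of each role, not scaled to length, the knockdown and TAC libraries overlapped. Cdh5 was at 479 and 424 CPM in the knockdown libraries and at 376 and 466 CPM in the TAC libraries, a difference of 0.11 ± 0.13 on the log2 scale. Podxl was at 411 and 364 CPM after knockdown and at 317 and 386 CPM in TAC alone. Flt1, at 275 and 243 CPM after knockdown and at 243 and 255 CPM in TAC alone, differed by 0.05 ± 0.10. Flt1 in knockdown replicate 2 and TAC replicate 1 was nearly equal. Ptprb was at 333 and 263 CPM after knockdown and at 270.4 and 319 CPM in TAC alone, and Aqp1 was at 331 and 321 CPM after knockdown and at 393 and 251 CPM in TAC alone. In Aqp1 the knockdown libraries lay inside the range of TAC. Sox18 was at 60.8 and 51.2 CPM after knockdown and at 42.6 and 63.8 CPM in TAC alone.

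Klf4 and Klf2, which laminar flow induces, had a wide spread inside the knockdown group. Klf4 was at 79.9 and 52.7 CPM in the knockdown libraries and at 75.3 and 70.3 CPM in the TAC libraries, and Klf2 at 82.9 and 54.9 CPM in the knockdown libraries and at 72.3 and 62.7 CPM in the TAC libraries. For both, the TAC libraries lay inside the range of knockdown. Sox7, a SOXF factor, was at 46.2 and 30.5 CPM in the knockdown libraries and at 36.1 and 49.3 CPM in the TAC libraries, with overlap and a difference of −0.17 ± 0.19 on the log2 scale.

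Set against sham, the hearts with both TAC and knockdown had more endothelial identity genes above than below. This comparison shares its sham libraries with TAC against sham and its knockdown libraries with knockdown against TAC. None of the 34 was called by limma, against backgrounds of 0.138% of all genes called higher and 0.104% called lower, and limma-voom and robust limma also called 0. At an unadjusted p below 0.05, 4 genes were higher, Vwf, Egfl7, Cldn5 and Mmrn2, and 0 lower (background 6.02% and 2.78%). Of the fold changes 26 were above 0 and 8 below, where 59.6% of all genes were above 0, and the median was 0.18 on the log2 scale beside 0.05 for all genes. In 11 genes both knockdown libraries lay above both sham libraries (background 25.4%), and in Flt1 and Aqp1 both lay below (background 13.8%).

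Vwf had the smallest p of all 34. It was at 169 and 134 CPM in the knockdown libraries and at 89.8 and 102 CPM in the sham libraries, which did not overlap. Knockdown hearts were 1.57-fold higher (log2 0.65 ± 0.14, 95% interval 0.36 to 0.95), and the adjusted p was above the threshold in this fit without a block (limma, Benjamini-Hochberg adjusted p = 0.0933). Without knockdown replicate 1 the log2 fold change was 0.48. Megakaryocytes and platelets also make von Willebrand factor, and the 9 platelet genes in the table summed to 20.1 and 16.8 CPM in the knockdown libraries, 16.8 and 17.1 CPM in the TAC libraries and 46.2 and 63.7 CPM in the sham libraries. All 8 platelet genes tested were below 0 for TAC and for knockdown against sham, where 56.2% and 59.6% of all genes were above 0. Ppbp was called lower in both, and Itga2b was called lower after TAC alone against sham. Gp6 and Treml1 had libraries at 0. The part of the platelet genes in the Vwf values was not tested.

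Egfl7 (chr2:26580014-26593120, plus strand) was at 77.8 and 64.1 CPM in the knockdown libraries and at 54.3 and 49.4 CPM in the sham libraries, without overlap, and differed by 0.45 ± 0.16 on the log2 scale (limma, Benjamini-Hochberg adjusted p = 0.398). TAC alone, at 53.0 and 73.5 CPM, spanned the gap between them. Cldn5 was at 12.5 and 11.7 CPM in the knockdown libraries and at 7.08 and 9.88 CPM in the sham libraries, without overlap, and differed by 0.53 ± 0.22 (limma, Benjamini-Hochberg adjusted p = 0.517). Mmrn2 was at 86.1 and 71.5 CPM in the knockdown libraries and at 63.0 and 65.4 CPM in the sham libraries, without overlap, and differed by 0.29 ± 0.13 (limma, Benjamini-Hochberg adjusted p = 0.564).

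**Figure D3:**
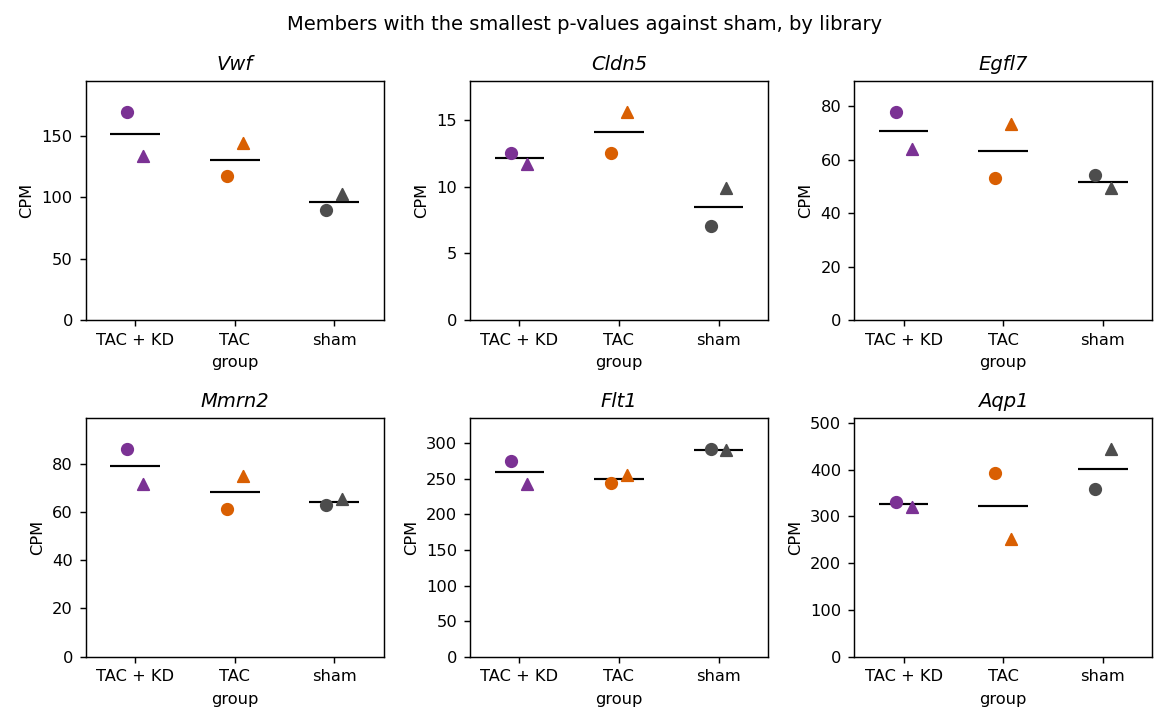
Level (CPM) of 6 genes by group, with 1 point per library (circle replicate 1, triangle replicate 2) and a bar at the group mean. Vwf, Cldn5, Egfl7 and Mmrn2 are higher in both knockdown libraries (TAC + KD) than in both sham libraries, and Flt1 and Aqp1 are lower in both.

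Flt1 was at 275 and 243 CPM in the knockdown libraries and at 292 and 290.04 CPM in the sham libraries, and differed by −0.17 ± 0.10 on the log2 scale (limma, Benjamini-Hochberg adjusted p = 0.690). Aqp1 was at 331 and 321 CPM in the knockdown libraries and at 359 and 444 CPM in the sham libraries, with −0.29 ± 0.17. In both genes the knockdown and sham libraries were separate. All 7 glycocalyx and secreted genes were above 0 against sham, with a median of 0.34, and 4 of them were separated, where 59.6% of all genes were above 0 and 25.4% separated upward. The ETS, SOXF and TAL1 factors were split, 3 above and 3 below, with a median of −0.04 and none separated. Sox7 had the lowest fold change of the 34, −0.30 ± 0.19, at 46.2 and 30.5 CPM in the knockdown libraries and at 50.8 and 41.8 CPM in the sham libraries, and its lower bound of −0.71, which is 0.609 times sham, was also the lowest. The interval of Cldn5 reached a log2 of 1.004, and 30 of the 34 intervals lay above 70% of the sham level.

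The genes moved together between the libraries of a group. In the knockdown group 33 of the 34 were higher in replicate 1 than in replicate 2, all but Esam, by a median of 1.19-fold, where 39.6% of all genes were higher in replicate 2. In the TAC group 29 of the 34 were higher in replicate 2, by a median of 1.23-fold, where 59.7% of all genes were, and the exceptions were S1pr1, Aqp1, Tal1, Klf2 and Klf4. In the sham group 16 were higher in replicate 2 and 18 in replicate 1. The spread inside a treated group was therefore larger than the median difference between the groups, and the median turned with single libraries. It was −0.04 for TAC against sham without TAC replicate 2, and −0.08 and −0.03 for knockdown against TAC without TAC replicate 1 and without knockdown replicate 1.

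Taken without resolving, the deposited columns called 16 of the 34 higher and 6 lower for TAC against sham (background 39.5% and 32%), 17 higher and 4 lower for knockdown against TAC (background 34.1% and 28.7%), and 21 higher and 4 lower for knockdown against sham (background 41.4% and 29.4%). The mixing makes the 2 columns of a group alike by construction, which shrinks the spread that the test uses.

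**Figure D4:**
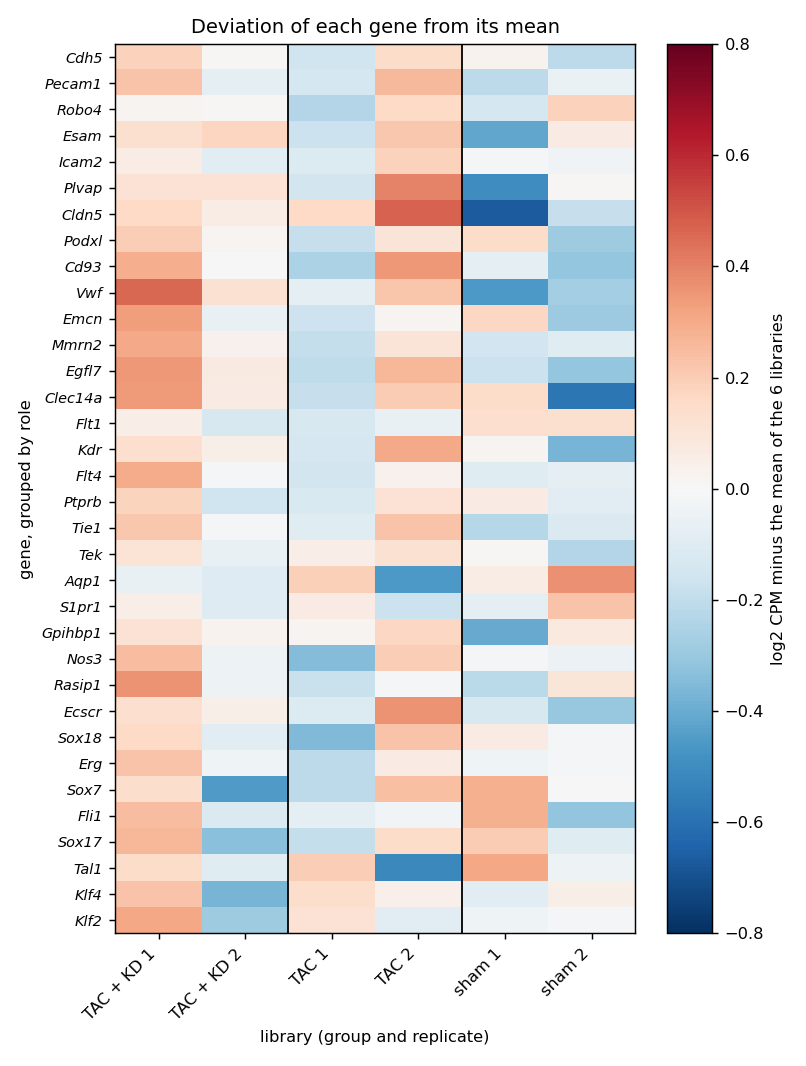
Deviation of each of the 34 genes (rows, grouped by role) in each library (columns) from its mean over the 6 libraries, in log2 CPM. Knockdown replicate 1 and TAC replicate 2 are above the mean for most genes and their partners are lower, with 33 of 34 genes higher in the first knockdown library and 29 of 34 higher in the second TAC library.

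Marker lists of other cell types are given beside these values. The 12 pericyte and smooth muscle genes summed to 2093 and 1834 CPM in the knockdown libraries, 1774 and 1903 CPM in the TAC libraries and 1869 and 1749 CPM in the sham libraries. The 9 fibroblast genes summed to 3166 and 2790.4 CPM in the knockdown libraries, 2642 and 3051 CPM in the TAC libraries and 2962 and 2852 CPM in the sham libraries. In both lists the same libraries were high as for the endothelial genes, and none of the genes was called by limma in any comparison. At an unadjusted p below 0.05, 5 pericyte and smooth muscle genes were higher and 1 lower in knockdown hearts than in sham (background 6.02% and 2.78%). Mfap5, a microfibril protein, had the smallest p among the fibroblast genes. It was at 38.9 and 35.6 CPM in the knockdown libraries, 34.4 and 52.6 CPM in the TAC libraries and 22.7 and 22.6 CPM in the sham libraries, higher in all 4 TAC libraries than in sham. It differed by 0.91 ± 0.18 on the log2 scale for TAC against sham, just above the threshold (limma, Benjamini-Hochberg adjusted p = 0.0552). Tagln, a smooth muscle gene, had a sham library at 0.

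The macrophage sums, and not every macrophage gene, were separate between both TAC groups and sham. The 12 genes summed to 898 and 619 CPM in the knockdown libraries, 569 and 698 CPM in the TAC libraries and 437 and 403 CPM in the sham libraries, none of them at 0. Mpeg1, a pore-forming protein of phagocytes, rose after TAC against sham and in knockdown hearts against sham. Cd68, a lysosomal protein, was called higher in knockdown hearts against sham, by 1.62 ± 0.28 on the log2 scale (limma, Benjamini-Hochberg adjusted p = 0.0333). For TAC against sham Cd68 differed by 1.46 ± 0.28, just above the threshold (limma, Benjamini-Hochberg adjusted p = 0.0552). The other 11 genes in the comparison of TAC with sham and the other 10 in that of knockdown with sham were not called. All 12 were above 0 in both comparisons, where 56.2% and 59.6% of all genes were. At an unadjusted p below 0.05, 7 were higher for TAC and 10 for knockdown (background 5.86% and 6.02%), and 0 were lower (background 3.72% and 2.78%). Adgre1, which encodes F4/80, overlapped between TAC at 10.8 and 15.5 CPM and sham at 11.7 and 10.1 CPM. Mpeg1 was at 82.1 and 45.7 CPM in the knockdown libraries, 46.6 and 54.9 CPM in the TAC libraries and 14.8 and 13.2 CPM in the sham libraries (limma, Benjamini-Hochberg adjusted p = 0.00193 for TAC and 0.000525 for knockdown, each against sham). Lymphocyte genes summed to at most 11.1 CPM in any library, with Cd3d, Cd3e, Cd3g and Lck at 0 in at least 1, and the 5 mesothelial genes in the table summed to between 8.07 and 13.4 CPM, with Upk1b, Krt19 and Krt8 at 0 in at least 1. The part of these lists in the endothelial values was not tested.

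**Figure D5:**
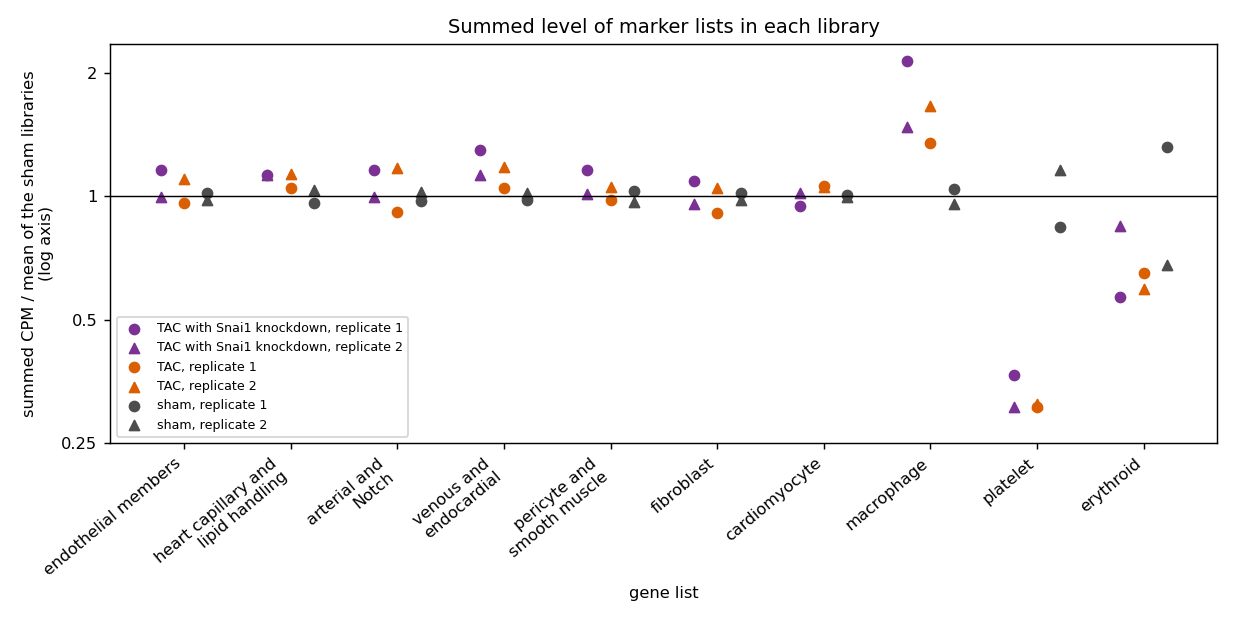
Summed CPM of each marker list in each library, divided by the mean of the sham libraries (log axis), with colours for the groups and circles and triangles for replicates 1 and 2. The endothelial genes stay close to 1, the macrophage list lies above 1 and the platelet list below 1 in all 4 TAC libraries, with or without knockdown.

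For the mesenchymal side, 21 genes linked to endothelial to mesenchymal transition were read in heart RNA. By limma 0 were called in any of the 3 comparisons. Col1a1 and Col1a2 are also in the fibroblast list, and Acta2, Cnn1 and Tagln in the pericyte and smooth muscle list. In whole tissue the RNA of the 21 genes cannot be assigned to endothelial cells. At an unadjusted p below 0.05, 2 of the 21 were higher after TAC than in sham, Col3a1 and Mmp2, and 0 lower (background 5.86% and 3.72%). There were 0 between knockdown and TAC (background 1.27% and 0.81%), and 2 were higher and 2 lower in knockdown hearts than in sham (background 6.02% and 2.78%). The list had a median log2 fold change of 0.09 for TAC against sham, −0.06 for knockdown against TAC and 0.06 for knockdown against sham. Col3a1, a fibrillar collagen, was at 246 and 239.9 CPM in the knockdown libraries, 199 and 363 CPM in the TAC libraries and 186 and 165 CPM in the sham libraries. It was higher in every TAC library than in either sham library, by 0.62 ± 0.19 on the log2 scale for TAC alone (limma, Benjamini-Hochberg adjusted p = 0.280). Zeb2, a repressor related in function to Snai1, had the smallest p between knockdown and TAC, with 0.29 ± 0.17.

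Other genes of the endothelial programme gave 0 calls by limma in each comparison. Of 15 VEGF, angiopoietin, apelin and adrenomedullin genes, 2 were higher and 1 lower at an unadjusted p below 0.05 for TAC against sham (background 5.86% and 3.72%). There were 0 at that level for knockdown against TAC (background 1.27% and 0.81%), and 3 were higher and 3 lower for knockdown against sham (background 6.02% and 2.78%). In this list Angpt1, the activating ligand of Tek, was at 37.1 and 34.5 CPM in the knockdown libraries, 40.6 and 32.6 CPM in the TAC libraries and 50.4 and 50.1 CPM in the sham libraries. Both TAC libraries lay below both sham libraries, and the difference was −0.46 ± 0.14 on the log2 scale (limma, Benjamini-Hochberg adjusted p = 0.262). Apln, the apelin ligand made by tip cells, differed by 0.49 ± 0.18. Of 12 genes of flow response or MEK5-ERK5-MEF2 signalling, 1 was higher and 1 lower at an unadjusted p below 0.05 for TAC against sham (background 5.86% and 3.72%). The lower one, Ccn1, a matricellular protein, had the smallest p of this list. It was at 46.9 and 57.4 CPM in the knockdown libraries, 50.6 and 42.0 CPM in the TAC libraries and 67.4 and 91.5 CPM in the sham libraries. All 4 TAC libraries lay below both sham libraries. Ccn1 differed by −0.77 ± 0.16 on the log2 scale for TAC against sham (limma, Benjamini-Hochberg adjusted p = 0.0695) and by −0.60 ± 0.16 for knockdown against sham (limma, Benjamini-Hochberg adjusted p = 0.232). The higher one, Edn1, the vasoconstrictor endothelin-1, was at 2.75 and 3.07 CPM in the knockdown libraries, 4.20 and 5.69 CPM in the TAC libraries and 1.48 and 2.07 CPM in the sham libraries. The 3 groups did not overlap. Edn1 differed by 1.46 ± 0.37 on the log2 scale for TAC against sham (limma, Benjamini-Hochberg adjusted p = 0.172) and by −0.74 ± 0.37 for knockdown against TAC (limma, Benjamini-Hochberg adjusted p = 0.9995).

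Of 14 heart capillary and lipid-handling genes 13 were above 0 for TAC against sham, 12 for knockdown against TAC and 14 for knockdown against sham. Over all genes tested 56.2%, 54.4% and 59.6% were above 0 in these comparisons. The medians of the list were 0.16, 0.07 and 0.23 on the log2 scale, beside 0.04, 0.02 and 0.05 for all genes. Fabp5, a fatty acid binding protein, was at 25.2 and 20.7 CPM in the knockdown libraries, 17.0 and 28.4 CPM in the TAC libraries and 12.5 and 13.0 CPM in the sham libraries, higher in every TAC library than in sham. It differed by 0.79 ± 0.22 for TAC against sham (limma, Benjamini-Hochberg adjusted p = 0.212). Of 11 junction genes outside the 34, 1 was higher at an unadjusted p below 0.05 for knockdown against TAC (background 1.27%). It was Jam3, a junctional adhesion molecule, which stood at 13.7 and 10.1 CPM in the knockdown libraries and at 8.01 and 7.49 CPM in the TAC libraries, without overlap, a difference of 0.60 ± 0.22 (limma, Benjamini-Hochberg adjusted p = 0.9995). The 15 arterial and Notch genes had medians of 0.04, 0.05 and 0.11 in the 3 comparisons, and 14 other endothelial transcription factors had medians of 0.10, 0.06 and 0.12. The smallest p for TAC against sham belonged to Gja5, a connexin, at 0.41 ± 0.18 on the log2 scale, among the arterial genes. It belonged to Gata2 at −0.32 ± 0.17 among the factors and to Pard3, a polarity protein, at 0.28 ± 0.12 among the junction genes. For knockdown against TAC it belonged to Gja5 at −0.30 ± 0.18, to the homeobox factor Meis2 at −0.16 ± 0.13, to the adrenomedullin co-receptor Ramp2 at 0.24 ± 0.12 and to Cd300lg, a capillary mucin, at 0.21 ± 0.12. For knockdown against sham it belonged to Notch1 at −0.28 ± 0.15, to Ets2 at 0.27 ± 0.13 and to Afdn, the junction protein afadin, at 0.21 ± 0.12. None of these passed the adjustment, and in heart tissue their values cannot be assigned to endothelial cells.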

How the data were processed

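RNA from heart was extracted with TRIzol and made into libraries with a SMARTer kit, per the labels' protocols, which also mention cultured cells. The authors deposited 1 table of log2 values for 6 columns, and limma and the mm10 build are named in the submitters' processing notes. For the aligner, the counter, the annotation and the strandedness: not given in the sources used here. The deposited log2 values have the form of log2 CPM with 0.5 added to the reads. Undone, the 2 columns of each group resolved as 60:40 and 40:60 mixtures of 2 libraries. Of 115920 resolved values 99.9% were whole within 0.05 reads and 0 were negative, while 12 pairings of columns across groups gave at most 21.1%. No source used here records this mixing. Of the resolved counts between 1 and 20, 68.7% were even.

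Resolved counts were scaled by library totals and tested with limma 3.58.1 in R 4.3.3 (intensity trend, 1 mean per group over 6 libraries, residual df 3, prior df 11.3). Genes needed the CPM of 10 reads in at least 2 libraries and 15 reads in all, which removed 4873 genes with 0.0583% of the reads and left 14447. The threshold was an adjusted p of 0.05 (Benjamini-Hochberg). The procedure was run on simulated data whose genes varied independently. The 34 genes moved together, so that run gives no error rate for them. A gene's length is its merged exons in GENCODE on GRCm38, and coordinates are from that annotation. Named first were the 4 genes with the smallest unadjusted p per comparison, the most abundant gene of each role, and from the other lists the called genes or those with the smallest p, although not for every list in every comparison. Further genes were named after their values were seen. The 34 genes and all lists were chosen with earlier results of these data known. The replicate numbers did not pair the libraries. A marker of the erythroid list is not reported here. Alternatives covered the unresolved columns, scaling, the reads added, the filter, voom, robust estimation, the replicate block and leaving out each library.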

Additional observations from a re-analysis of the deposited data

How the results depend on the processing

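Under median ratio scaling, quantile normalization, 2 reads added, no filter, a filter of 50 reads, limma-voom and robust estimation, 0 of the 34 genes were called in any comparison, and the median log2 fold changes stayed between 0.01 and 0.18. Median ratio scaling turned the sign of 3 genes for TAC against sham and of 4 in each of the other comparisons, all with reported log2 fold changes of at most 0.04 in size. The deposited columns taken as they stand, whose mixing makes the 2 columns of a group alike, called 16 genes higher and 6 lower for TAC against sham, 17 and 4 for knockdown against TAC, and 21 and 4 for knockdown against sham. Leaving out each library in turn gave 0 calls, with medians from −0.040 to 0.21 for TAC against sham, −0.081 to 0.22 for knockdown against TAC and 0.04 to 0.28 for knockdown against sham. For TAC against sham and knockdown against TAC the lowest and highest medians came without a TAC library. For knockdown against sham they came without knockdown replicate 1 and without knockdown replicate 2. Where a library is left out its lone partner is assumed to vary like the other groups. Vwf in knockdown against sham had an adjusted p (limma, Benjamini-Hochberg) from 0.0791 with 2 reads added to 0.626 without knockdown replicate 1, outside the deposited columns (1.44e-15) and the crossed numbers below.

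The replicate numbers did not pair the libraries: deviations of same-numbered libraries correlated at −0.135 for knockdown with TAC, 0.134 for knockdown with sham and −0.222 for TAC with sham over 5246 genes. With the replicate block 0 of the 34 genes were called in any comparison. Chosen after seeing the data, a block with the TAC numbers crossed gave 1 higher gene for knockdown against sham, Vwf. Scaling to the 34 genes' own median, also chosen after seeing the data, gave 0 calls. The medians were −0.00 for TAC against sham, −0.02 for knockdown against TAC and 0.06 for knockdown against sham. This scaling sets the genes' median deviation to 0 in every library, so medians near 0 were fixed in advance and show nothing about a shared shift. With 2 libraries a group, the median standard error of the 34 genes was 0.16 on the log2 scale, and differences several times larger, such as Cldn5 at 0.74 for TAC against sham and Vwf at 0.65 for knockdown against sham, were not called.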

Other observations

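Lymphatic genes, 6 in all, had 0 called by limma. At an unadjusted p below 0.05 for TAC against sham, 1 was lower, Lyve1, and 1 higher, Prox1 (background 3.72% lower and 5.86% higher). Lyve1, a hyaluronan receptor of lymphatic endothelium that some heart macrophages share, was at 14.0 and 15.2 CPM in the knockdown libraries, 13.3 and 20.03 CPM in the TAC libraries and 21.1 and 29.1 CPM in the sham libraries. All 4 TAC libraries, with or without knockdown, lay below both sham libraries, and the difference was −0.60 ± 0.21 on the log2 scale for TAC against sham (limma, Benjamini-Hochberg adjusted p = 0.363). Prox1, the lymphatic master factor that cardiomyocytes also express, was at 113 and 107 CPM in the knockdown libraries, 131 and 121 CPM in the TAC libraries and 120 and 70.7 CPM in the sham libraries. It differed by 0.45 ± 0.18 for TAC against sham (limma, Benjamini-Hochberg adjusted p = 0.417).

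Among 8 venous and endocardial genes tested, Npr3, a natriuretic peptide clearance receptor of the endocardium, was at 37.6 and 35.6 CPM in the knockdown libraries, 31.3 and 37.1 CPM in the TAC libraries and 19.4 and 27.5 CPM in the sham libraries. It was higher in all 4 TAC libraries than in sham, by 0.56 ± 0.17 for TAC alone (limma, Benjamini-Hochberg adjusted p = 0.280). Notch3, the Notch receptor of pericytes and smooth muscle, was at 61.5 and 57.7 CPM in the knockdown libraries, 47.1 and 56.2 CPM in the TAC libraries and 41.1 and 40.2 CPM in the sham libraries. Its difference of 0.55 ± 0.13 for knockdown against sham did not pass (limma, Benjamini-Hochberg adjusted p = 0.153). Of 12 immediate early genes Nr4a1, an orphan nuclear receptor induced within minutes of stress or handling, fell after TAC against sham and in knockdown hearts against sham. It was at 38.7 and 26.2 CPM in the knockdown libraries, 18.2 and 15.2 CPM in the TAC libraries and 66.9 and 93.9 CPM in the sham libraries (limma, Benjamini-Hochberg adjusted p = 0.000212 for TAC and 0.0140 for knockdown, each against sham). Both knockdown libraries lay above both TAC libraries, by 0.93 ± 0.20 on the log2 scale, which was not called (limma, Benjamini-Hochberg adjusted p = 0.9995).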
